A study of Danio rerio with 9 samples.

Results

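The genes of the AMP-activated protein kinase (AMPK) and of its upstream kinase *stk11* were followed in RNA sequencing of zebrafish skeletal muscle. Members were the genes found under 10 names: the catalytic alpha subunits *prkaa1* and *prkaa2*, the beta subunits *prkab1a*, *prkab1b* and *prkab2*, the gamma subunits *prkag1*, *prkag2a*, *prkag3a* and *prkag3b*, and *stk11*. Of these 10 names, 9 were found among the 32520 genes listed, and *prkab2* was not found as a gene name. A gene listed as CABZ01083448.1 (ENSDARG00000067817) carried the description of an AMPK beta-2 subunit in the deposited annotation columns, and *prkag2b* (ENSDARG00000001933) was a further gamma subunit outside the list of names. Both were described beside the members after their values had been seen, and neither was counted as a member. Of the 9 members, 8 passed the filter on low counts and were tested. The remaining member, *prkaa2* (ENSDARG00000060641), had 1 to 7 reads in each library and was not tested.

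AMPK is the cell's sensor of energy charge. It is a complex of an alpha subunit, which carries the kinase domain, a beta subunit, which holds the complex together and binds glycogen, and a gamma subunit, which binds AMP, ADP and ATP. When ATP falls, for example in contracting muscle, nucleotide binding at gamma favours phosphorylation of alpha by the Stk11 (Lkb1) kinase, and the active complex switches on ATP-producing pathways such as fatty acid oxidation and glucose uptake and restrains ATP-consuming synthesis. In mammals the gamma-3 subunit is largely restricted to fast glycolytic muscle, and the beta-2 subunit is the main beta subunit of skeletal muscle. AMPK activity is set by phosphorylation and nucleotide binding, which RNA levels do not measure.

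The study compared wild-type fish (WT), *bves* knockout fish (*bves* KO) and knockout fish after swim training (*bves* KO-EX), with 3 libraries in each group. The WT fish were of the AB strain, males aged 12 months were used, and each library pooled muscle of 2 fish, taken between the dorsal and the caudal fin. The knockout came from CRISPR/Cas9 cuts in an early coding exon of *bves* in the whole animal, so the gene was disrupted in every tissue, and the frameshift line that was sequenced was not given in the sources used here. Training lasted 8 weeks, in sessions of 1.5 h on 3 days followed by 1 day of rest, against a water flow of 10 cm/s that was later raised to 16 cm/s. No exercised WT group was sequenced, so in *bves* KO-EX against WT the genotype and the training cannot be told apart, and *bves* KO-EX against *bves* KO compares trained with untrained fish that both carry the knockout label.

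The libraries held 17422188 to 18860779 estimated reads. The targeted gene *bves* was measured at 39.5, 57.2 and 43.8 CPM (counts scaled to library size) in WT replicates 1, 2 and 3 and at 7.94, 17.5 and 6.70 CPM in *bves* KO. It stood at 47.4, 11.4 and 49.6 CPM in the libraries labelled *bves* KO-EX. Replicates 1 and 3 of that group lay within the WT range, and so did not match the level of the *bves* KO group. RNA level alone does not show whether a library carried the frameshift, which was not tested. The name *bves* KO-EX therefore stands for the libraries so labelled, and for the members the log2 fold changes are also given with the group represented by replicate 2 alone. All 8 fast muscle markers searched were found and the cardiac marker *myl7* was at 0, while WT replicate 2 stood apart, with the lowest scaling factor (0.763, the others 0.930 to 1.17) and a summed slow muscle marker level of 471 TPM (transcript abundance corrected for gene length) against 1249 and 1490 TPM in the other WT libraries.

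The AMPK genes were expressed at very unequal levels. Levels of different genes were compared in TPM, which corrects for gene length. Over all 9 libraries the mean was 82.5 TPM for CABZ01083448.1, 17.3 TPM for *prkab1b*, 9.21 TPM for *prkag3a*, 8.73 TPM for *prkag3b* and 7.08 TPM for *stk11*. The lower genes were *prkag2b* (3.52 TPM), *prkab1a* (1.70 TPM), *prkaa1* (1.66 TPM), *prkag1* (1.52 TPM) and *prkag2a* (1.36 TPM), and *prkaa2* was close to absent at 0.056 TPM. Only 3 steps of this order were clear of the spread between libraries, namely CABZ01083448.1 above *prkab1b*, *prkab1b* above *prkag3a*, and *prkag2a* above *prkaa2*, where the ranges over 9 libraries did not overlap. Within libraries, *stk11* exceeded *prkag2b* in 9 of 9 and *prkag2b* exceeded *prkab1a* in 9 of 9, although their ranges overlapped. The 2 gamma-3 genes could not be ordered, since *prkag3a* exceeded *prkag3b* in 4 of 9 libraries. Over all 9 libraries neither could *prkab1a* and *prkaa1*, with *prkab1a* higher in 3 of 9. These 3 were the libraries labelled *bves* KO-EX, at 3.04, 2.11 and 2.03 TPM against 1.28, 1.72 and 1.22 TPM for *prkaa1*. In every WT and every *bves* KO library *prkab1a* was the lower of the pair.

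**Figure D1:**
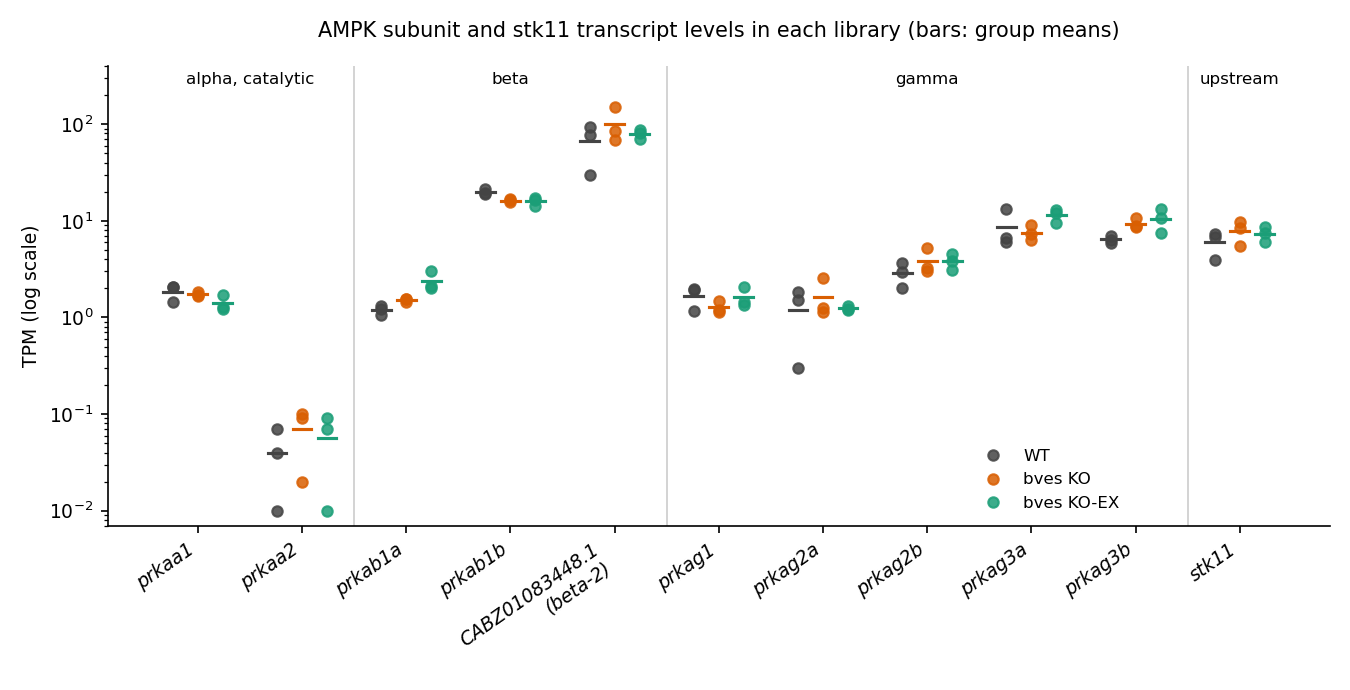
Level of each AMPK subunit gene and of *stk11* in TPM (log axis), 1 point per library and a bar at the mean of each group of 3. The annotated beta-2 gene CABZ01083448.1 lies between 29.4 and 149 TPM, and the catalytic gene *prkaa2* at 0.01 to 0.10 TPM.

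Among the catalytic subunits, nearly all transcripts came from *prkaa1* (ENSDARG00000060596). In TPM, its WT libraries stood at 2.04, 1.46 and 2.05, its *bves* KO libraries at 1.65, 1.85 and 1.70, and its *bves* KO-EX libraries at 1.28, 1.72 and 1.22. It made up 94.8% to 99.3% of the summed alpha TPM of a library, and *prkaa2* the rest, in every group. In mammals the alpha-2 subunit, encoded by the counterpart of *prkaa2*, is abundant in skeletal muscle.

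The beta subunits were dominated by CABZ01083448.1. Its WT libraries had 77.0, 29.4 and 94.2 TPM, its *bves* KO libraries 85.3, 69.3 and 149 TPM, and its *bves* KO-EX libraries 70.7, 80.2 and 87.9 TPM. This gene varied most in WT and *bves* KO, with WT replicate 2 at the bottom and *bves* KO replicate 3 at the top, and the groups overlapped. Its share of the summed beta TPM was 59.6% to 89.0%, and 85.4% to 97.3% when counts were divided by the deposited gene length instead, so the length behind its TPM was not the deposited one. Its counts were not whole numbers in 9 of 9 libraries (tolerance 0.001), which means that some of its reads were divided with other features, and its level is uncertain to that extent. Of the named beta subunits, *prkab1b* (ENSDARG00000046143) ranged from 14.2 to 21.2 TPM and *prkab1a* (ENSDARG00000044183) from 1.06 to 3.04 TPM, without overlap in any group. Counts of *prkab1b* were not whole in 3 of 9 libraries, namely *bves* KO replicate 1 and *bves* KO-EX replicates 2 and 3.

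The gamma transcripts were mostly of the gamma-3 type, which in mammals is largely restricted to fast glycolytic muscle. Together *prkag3a* (ENSDARG00000017537) and *prkag3b* (ENSDARG00000000369) made up 63.6% to 77.9% of the summed gamma TPM, with a median of 74.7% over 9 libraries. *prkag3a* alone took 29.4% to 53.9% and *prkag3b* 24.0% to 41.1%. The share of *prkag2b* was 8.18% to 22.1%, that of *prkag1* (ENSDARG00000003818) 4.35% to 9.55% and that of *prkag2a* (ENSDARG00000012625) 1.73% to 9.57%. The lowest *prkag2a* share, in WT replicate 2, rested on 15 reads. Counts of *prkag3a* were not whole in 9 of 9 libraries either, so its reads were also partly divided with other features, whereas those of *prkag3b* were whole in all 9.

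**Figure D2:**
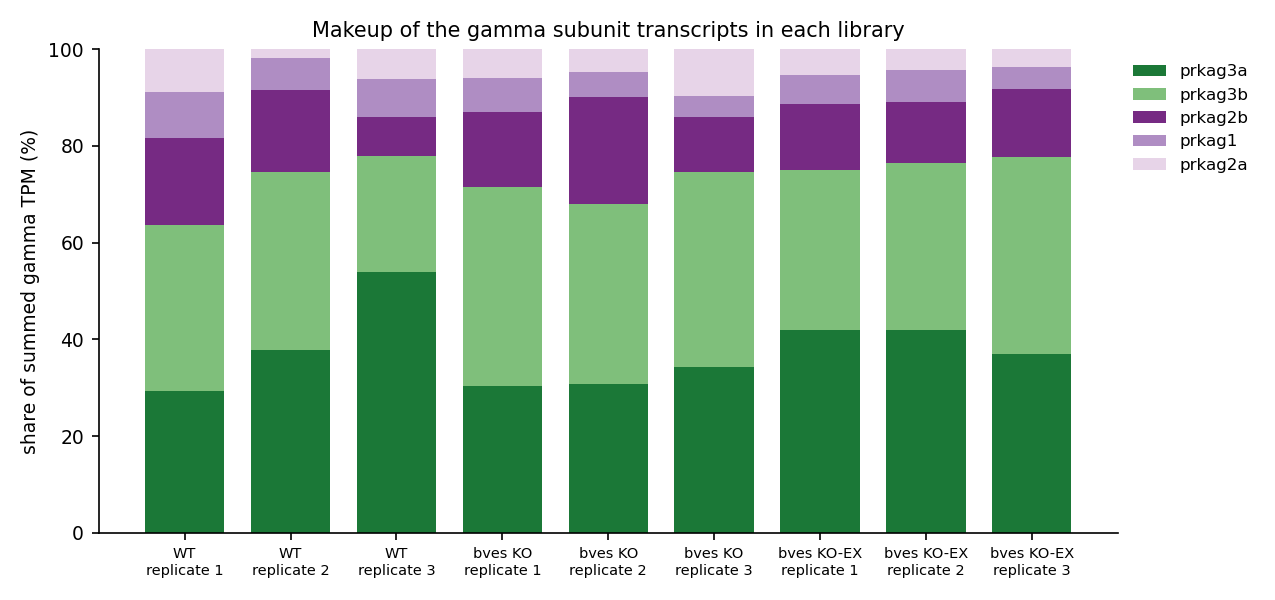
Share of each gamma subunit gene in the summed gamma TPM of each library, in percent (stacked bars, 1 bar per library). The gamma-3 genes *prkag3a* and *prkag3b* fill 63.6% to 77.9% of every bar, and WT replicates 1 and 3 are at the ends of that range.

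Transcripts of the beta and gamma subunits outnumbered those of alpha in every library. The summed alpha level was 1.23 to 2.12 TPM, the summed beta level 49.4 to 167 TPM and the summed gamma level 17.4 to 32.4 TPM. The beta sum was 33.6 to 93.3 times the alpha sum (median 55.0), and the gamma sum was 9.87 to 26.3 times the alpha sum. CABZ01083448.1, which was not a member and whose level was uncertain, made up 59.6% to 89.0% of the beta sum. The size of the beta ratio therefore rests mostly on that gene. The named gene *prkab1b* alone, at 14.2 to 21.2 TPM, was above the alpha sum in every library. The highest gamma to alpha ratio, 26.3, was in *bves* KO-EX replicate 3 and the lowest, 9.87, in WT replicate 1. These ratios compare RNA and carry no information on protein.

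To ask whether the loss of *bves* or training changed these genes, groups were compared by CPM after TMM scaling with edgeR's quasi-likelihood test, with Benjamini-Hochberg adjustment over the 14849 genes tested. No member passed an adjusted p of 0.05 in any of the 3 comparisons, and none did in DESeq2, which called 4.78%, 4.94% and 11.8% of all genes. The targeted gene *bves* did not pass in edgeR either in *bves* KO against WT. Its log2 fold change was -2.13 there (SE 0.55, adjusted p = 0.104 by edgeR), and it passed in 2 of 11 other settings. A missing call therefore does not show that a gene was unchanged. At an unadjusted p under 0.05, edgeR counted 1 of 8 members in *bves* KO against WT, 1 of 8 in *bves* KO-EX against *bves* KO and 4 of 8 in *bves* KO-EX against WT. Over all genes tested, 1.11%, 1.64% and 5.39% passed the adjusted threshold and 16.9%, 15.3% and 25.1% the unadjusted p in the same order. The median log2 fold change of the 8 members was -0.05, 0.01 and 0.14, and that of all genes tested was -0.03, 0.01 and 0.01. In whole muscle, fewer cells of a type and less RNA per cell cannot be told apart. The 3 comparisons share libraries pairwise, so their values for a gene are not independent.

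The members with the widest separation in *bves* KO against WT were *prkag1*, *prkab1b* and *prkag3b*. *prkag1*, a widely expressed gamma subunit in mammals, measured 5.95, 5.95 and 6.43 CPM in WT and 4.93, 4.32 and 3.87 CPM in *bves* KO, so every knockout library was below every WT library. Its log2 fold change was -0.48 (SE 0.20, 95% interval -0.91 to -0.05), with an edgeR adjusted p of 0.247. On the TPM scale the groups met, with WT libraries at 1.96, 1.17 and 1.91 TPM and knockout libraries at 1.48, 1.18 and 1.15 TPM. *prkab1b*, the more abundant beta-1 gene, was at 17.7, 28.5 and 17.1 CPM in WT and at 15.0, 17.01 and 16.2 CPM in *bves* KO, and its fitted change was -0.39 on the log2 scale (SE 0.21, adjusted p = 0.362 in edgeR). The high WT value was that of replicate 2, and without that library the log2 fold change was -0.11. In TPM its groups did not meet, with WT libraries at 21.2, 18.9 and 19.5 TPM and knockout libraries at 15.5, 16.2 and 16.8 TPM. WT replicate 2 was the lowest WT library on that scale. *prkag1* and *prkab1b* were the 2 of 8 members whose CPM ranges did not overlap, both lower in the knockout. Of all genes tested, 21.4% did not overlap, 11.2% being higher and 10.2% lower.

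The gamma-3 gene *prkag3b* had higher values in the knockout. It measured 6.43, 9.26 and 6.43 CPM in WT and 9.22, 11.0 and 10.8 CPM in *bves* KO, overlapping only through WT replicate 2. The log2 fold change was 0.49 (SE 0.23, 95% interval -0.01 to 1.00, adjusted p = 0.301 by edgeR). In TPM its groups did not meet, the WT libraries being at 7.03, 6.38 and 5.86 TPM and the knockout libraries at 8.57, 8.78 and 10.7 TPM. Its paralogue *prkag3a* overlapped widely, at 4.56, 7.15 and 8.56 CPM in WT and 4.88, 4.73 and 7.52 CPM in *bves* KO, and its fitted log2 change was -0.24 (SE 0.27, adjusted p = 0.683 in edgeR), -0.030 without WT replicate 3 and -0.48 without *bves* KO replicate 3. The summed level of 4 of 4 fibroblast markers was also higher in the knockout, with a WT range of 61.4 to 77.7 TPM and a knockout range of 121 to 183 TPM. The collagen genes *col1a1a* and *col1a2* and *dcn* carried this sum, while *pdgfra* was at 1.23 to 2.69 TPM in WT and 1.11 to 1.35 TPM in *bves* KO. The summed level of the 8 fast muscle markers was 121635 to 138969 TPM in WT libraries against 159101 to 178378 TPM in the knockout. Of these, *actc1b*, *ckma*, *ckmb* and *myhz2* were higher without overlap, while *mylpfa*, *tnnt3b*, *tnni2a.4* and *myhz1.1* overlapped. *mylpfa* was at 12522 to 17332 TPM in WT and 12814 to 16730 TPM in *bves* KO. The part of the fibroblast or fast muscle markers in the *prkag3b* values was not tested.

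*stk11* (ENSDARG00000046074), the kinase that activates AMPK, measured 12.8, 11.7 and 13.5 CPM in WT and 16.2, 11.9 and 19.3 CPM in *bves* KO. The groups overlapped through *bves* KO replicate 2. Its log2 fold change of 0.32 (SE 0.20, 95% interval -0.12 to 0.76) had an edgeR adjusted p of 0.429, and it was 0.16 without *bves* KO replicate 3. *prkaa1* was at 7.24, 8.74 and 8.10 CPM in WT and 6.44, 7.96 and 6.70 CPM in *bves* KO, with a log2 fold change of -0.19 (SE 0.19, 95% interval -0.60 to 0.22). For the single tested catalytic subunit this interval left room for a fall by 0.60 or a rise by 0.22 on the log2 scale. *prkab1a* had a log2 fold change of 0.09, and its groups overlapped in CPM. In TPM they did not, with WT libraries at 1.30, 1.06 and 1.23 TPM and knockout libraries at 1.56, 1.44 and 1.54 TPM. *prkag2a* had a log2 fold change of 0.28, and -0.05 without WT replicate 2. In that library it had 1.13 CPM against 3.50 and 3.39 CPM in the other WT libraries.

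**Figure D3:**
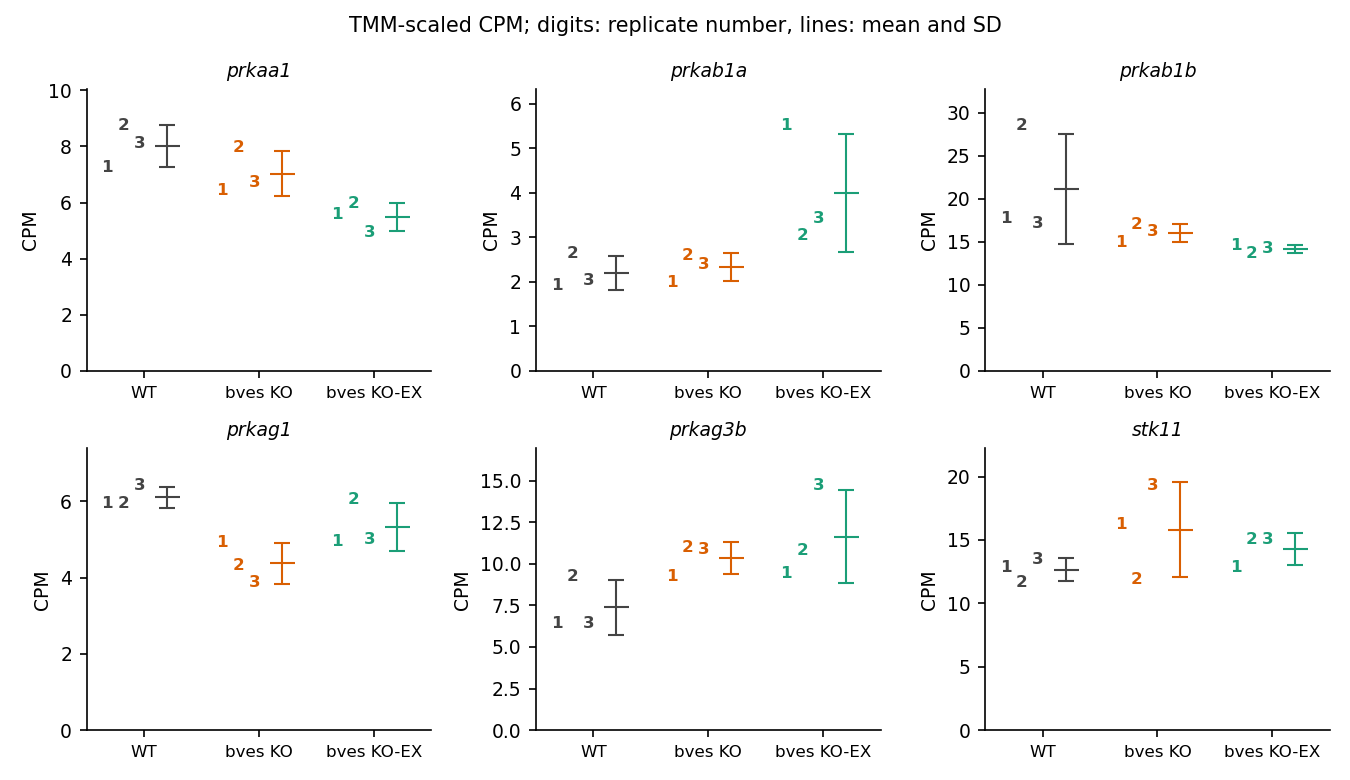
CPM of 6 members in each library (digits give the replicate number, the bar beside them the group mean with its SD, n = 3). Every *bves* KO library of *prkag1* lies below every WT library, and every *bves* KO-EX library of *prkab1a* lies above all 6 others.

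In *bves* KO-EX against *bves* KO, which sets libraries labelled as trained against those labelled as untrained, *prkab1a* differed most. This lowly expressed beta-1 gene measured 1.98, 2.59 and 2.40 CPM in *bves* KO and 5.50, 3.05 and 3.42 CPM in the libraries labelled *bves* KO-EX, that is 37 to 45 reads against 63 to 99. Every library labelled *bves* KO-EX was above every *bves* KO library, and replicate 1 was the highest. The log2 fold change was 0.78 (SE 0.29, 95% interval 0.15 to 1.40), with an edgeR adjusted p of 0.211, and 0.48 without *bves* KO-EX replicate 1. With the group represented by replicate 2 alone it was 0.37 (edgeR adjusted p = 0.783). The summed level of 4 of 4 erythrocyte marker names was 1989, 1413 and 1917 TPM in *bves* KO-EX, against 1078 to 1542 TPM in *bves* KO, and the share of reads from mitochondrial genes was highest, at 23.4%, in *bves* KO-EX replicate 1. Adipocyte markers summed to 464 to 572 TPM in *bves* KO-EX and 311 to 415 TPM in *bves* KO, with *plin1* at 0. The gene *fabp11a* carried this sum, while *adipoqb* overlapped, at 10.5 to 15.7 TPM and 8.22 to 19.2 TPM. Endothelial markers summed to 27.1 to 35.7 TPM in *bves* KO-EX and 38.1 to 43.7 TPM in *bves* KO. Of these, *kdrl* was lower without overlap, at 13.1 to 17.9 TPM against 23.6 to 27.1 TPM, while *cdh5* and *pecam1* overlapped. For both types 3 of 3 names were found. Keratinocyte markers, with 4 of 4 names found, summed to 239, 177 and 74.1 TPM in *bves* KO-EX. They overlapped the 55.5 to 84.5 TPM of *bves* KO. Of these, *krt5* was higher without overlap, at 10.7 to 96.2 TPM against 0.38 to 2.16 TPM, while *krt4*, *krt91* and *krtt1c19e* overlapped. In a refit with the mitochondrially encoded genes removed, 0 members passed in this comparison. Beyond that refit, the part of the mitochondrial share and of these marker levels in the *prkab1a* values was not tested.

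*prkaa1* and *prkab1b* had lower CPM in the libraries labelled *bves* KO-EX, and neither passed the test. *prkaa1* measured 5.56, 5.95 and 4.95 CPM in *bves* KO-EX, all below the 3 *bves* KO libraries, with a log2 fold change of -0.36 (SE 0.19, 95% interval -0.77 to 0.06, adjusted p = 0.416 by edgeR). Its TPM ranges met, since *bves* KO-EX replicate 2 had 1.72 TPM. *prkab1b* was at 14.5, 13.6 and 14.2 CPM, also below the *bves* KO range, but by a log2 fold change of only -0.19 (SE 0.21, adjusted p = 0.759 by edgeR), and its TPM ranges overlapped. *prkag1* stood at 4.95, 6.05 and 5.002 CPM in *bves* KO-EX, above the *bves* KO range and overlapping that of WT, with a log2 fold change against *bves* KO of 0.29 (SE 0.20, adjusted p = 0.566 by edgeR). The margin was narrow, 4.95 against 4.93 CPM. So 4 of 8 members did not overlap, 2 higher and 2 lower, and of all genes tested 23.0% did not overlap, 12.2% higher and 10.8% lower.

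The remaining members overlapped in this comparison. *prkag3a* was at 7.45, 7.97 and 7.56 CPM in *bves* KO-EX, a narrower spread than in either other group, and had a log2 fold change of 0.42 against *bves* KO (SE 0.27, 95% interval -0.16 to 1.01). *prkag3b* stood at 9.39, 10.8 and 14.7 CPM (log2 fold change 0.17), *stk11* at 12.8, 15.0 and 15.0 CPM (-0.15) and *prkag2a* at 3.22, 2.81 and 2.72 CPM (-0.18). Their edgeR adjusted p ran from 0.513 to 0.880. The sign for *prkag3b* turned to -0.04 without *bves* KO-EX replicate 3, and that for *stk11* turned to 0.02 without *bves* KO replicate 3.

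The largest differences between members were seen in *bves* KO-EX against WT, where the labels differ in genotype and training at once. *prkab1a* was higher in *bves* KO-EX by a log2 fold change of 0.87 (SE 0.29, 95% interval 0.24 to 1.501), with an edgeR adjusted p of 0.0972, from 1.92, 2.64 and 2.03 CPM in WT. *prkag3b* was higher by 0.66 (SE 0.23, 95% interval 0.16 to 1.17, adjusted p = 0.106 by edgeR), without overlap at 9.39 CPM against 9.26 CPM. *prkaa1* had a log2 fold change of -0.55 (SE 0.19, 95% interval -0.96 to -0.13, adjusted p = 0.108 by edgeR) and *prkab1b* one of -0.58 (SE 0.21, 95% interval -1.04 to -0.11, adjusted p = 0.123 by edgeR), each with the CPM of all 3 *bves* KO-EX libraries below that of all 3 WT libraries. In TPM *prkaa1* overlapped, *bves* KO-EX replicate 2 being at 1.72 TPM and WT replicate 2 at 1.46 TPM. *prkab1b* did not overlap in TPM, at 14.2 to 17.2 TPM in *bves* KO-EX and 18.9 to 21.2 TPM in WT. Its log2 fold change was -0.29 without WT replicate 2, and that of *prkab1a* was 0.58 without *bves* KO-EX replicate 1. In CPM these 4 of 8 members did not overlap, 2 higher and 2 lower, against 28.0% of all genes tested, 15.0% higher and 13.0% lower. An exact permutation test of 3 against 3 libraries cannot give a two-sided p below 0.1.

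**Figure D4:**
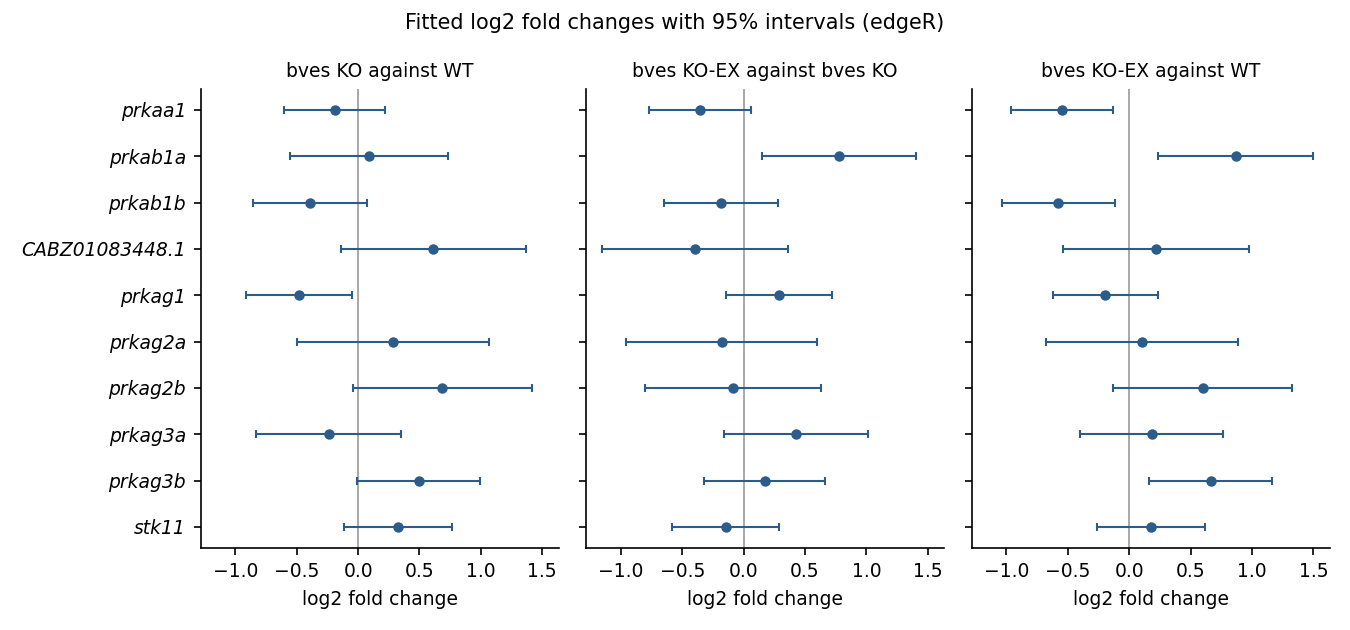
Fitted log2 fold changes of the 8 tested members, CABZ01083448.1 and *prkag2b* with 95% intervals from edgeR, 1 panel for each comparison. Intervals of *prkaa1*, *prkab1a*, *prkab1b* and *prkag3b* are clear of 0 in *bves* KO-EX against WT, where their adjusted p ran from 0.0972 to 0.123 in edgeR.

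With replicate 2 alone standing for *bves* KO-EX, all 8 members kept the sign of both comparisons and none passed the test, in a fit where the lone library is assumed to vary like those of the other groups. Against WT the values were then -0.45 for *prkaa1*, 0.46 for *prkab1a*, -0.65 for *prkab1b* and 0.53 for *prkag3b*, with edgeR adjusted p between 0.387 and 0.574. Against *bves* KO the 8 values ran from -0.26 for *prkaa1* and *prkab1b* to 0.46 for *prkag3a*, with edgeR adjusted p of at least 0.649. The other 4 members had log2 fold changes between -0.20 and 0.18 in *bves* KO-EX against WT with all libraries, and between -0.03 and 0.23 with replicate 2 alone.

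Neither of the AMPK genes outside the named list passed the test. CABZ01083448.1 had 182, 110 and 247 CPM in WT, 223, 200 and 402 CPM in *bves* KO and 205, 182 and 240 CPM in *bves* KO-EX. Its log2 fold changes were 0.61 (SE 0.34) in *bves* KO against WT, -0.39 (SE 0.34) in *bves* KO-EX against *bves* KO and 0.22 (SE 0.34) in *bves* KO-EX against WT, with edgeR adjusted p of 0.380, 0.668 and 0.728. The first of these was 0.24 without *bves* KO replicate 3 and 0.37 without WT replicate 2, the second was -0.015 without *bves* KO replicate 3, and the last was -0.025 without WT replicate 2 and 0.51 without WT replicate 3. *prkag2b* had 7.10, 10.8 and 4.86 CPM in WT, 10.2, 17.01 and 9.15 CPM in *bves* KO and 10.1, 9.28 and 14.8 CPM in *bves* KO-EX. Its log2 fold changes in the same order were 0.69, -0.09 and 0.60, with edgeR adjusted p from 0.290 to 0.940.

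Across the 9 libraries the AMPK genes fell into a loose pattern. Described by Pearson's r of log2 CPM, and without a test because the libraries share group and depth, *prkag3b* followed *prkag2b* (r = 0.82), *prkaa1* followed *prkab1b* (r = 0.77), and CABZ01083448.1 followed both *prkag2a* (r = 0.79) and *stk11* (r = 0.79). The lowest value was between *prkab1b* and *prkag2a* (r = -0.79). In CPM, WT replicate 2 was the highest library for *prkaa1* and *prkab1b* and the lowest for CABZ01083448.1, *prkag2a* and *stk11*. The genes most like *prkag1* over the 9 libraries were *det1* (r = 0.94), *pdgfra* (r = 0.93) and *ppp1r8b* (r = 0.93), and those most like *prkab1a* were *alas2* (r = 0.96), *asl* (r = 0.95) and *jpt1a* (r = 0.95). *alas2* encodes the heme synthesis enzyme of red blood cells.

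Genes around AMPK were then counted in 8 lists of upstream kinases, regulators, related kinases, genes listed as substrates, and genes of adenylate handling. Whether the product of a listed gene is an AMPK substrate was not tested. Of 119 names listed, 110 were found and 93 tested. In *bves* KO against WT, 0 of 93 passed the adjusted p of 0.05 in edgeR, at a background of 1.11% of all genes, 0.754% higher and 0.357% lower. In *bves* KO-EX against *bves* KO, 0 rose and 2 fell, where 0.721% of all genes rose and 0.916% fell. In *bves* KO-EX against WT, 3 rose and 2 fell, where 3.06% of all genes rose and 2.34% fell. At an unadjusted p under 0.05, edgeR counted 16, 19 and 21 of the 93 in the 3 comparisons, where 16.9%, 15.3% and 25.1% of all genes did so. DESeq2 called 7, 8 and 12 of them after adjustment, where it called 4.78%, 4.94% and 11.8% of all genes. List medians lay between -0.37 and 0.32 on the log2 scale over the 3 comparisons.

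Among the AMPK-related kinases, which Stk11 activates in mammals with few exceptions, *nuak1a* fell in *bves* KO-EX against *bves* KO. It measured 5.51, 5.72 and 7.54 CPM in WT, 6.86, 10.7 and 9.15 CPM in *bves* KO and 4.56, 3.24 and 4.13 CPM in *bves* KO-EX, the lowest of the 3 groups. The log2 fold change against *bves* KO was -1.16 (SE 0.24, adjusted p = 0.0409 by edgeR). Lower values in this comparison were not particular to *nuak1a*. The median log2 fold change of the 13 related kinases tested was -0.37, against 0.01 for all genes tested. Of the 13, 4 had an unadjusted p under 0.05 in edgeR, as did 15.3% of all genes. *melk*, a kinase of dividing cells, was counted at 23, 32 and 30 reads in WT, 19, 10 and 9 in *bves* KO and 9, 6 and 2 in *bves* KO-EX, and fell against WT by a log2 fold change of -2.46 (SE 0.55, adjusted p = 0.0324 by edgeR).

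In the lists of AMPK substrates, *gfpt2*, whose product catalyses the entry step of the hexosamine pathway, fell in the same comparison. Its CPM was 2.25, 0.904 and 1.72 in WT, 3.49, 2.71 and 5.01 in *bves* KO and 0.389, 1.27 and 0.544 in *bves* KO-EX, a log2 fold change against *bves* KO of -2.32 (SE 0.47, adjusted p = 0.0388 by edgeR). *eef2k*, whose product slows the elongation step of translation, measured 29.9, 35.6 and 47.1 CPM in WT, 57.3, 101 and 99.0 CPM in *bves* KO and 88.4, 58.4 and 112 CPM in *bves* KO-EX. All libraries labelled *bves* KO or *bves* KO-EX were above the WT range. The log2 fold change was 1.19 in *bves* KO against WT (edgeR adjusted p = 0.0913, DESeq2 adjusted p = 0.00909) and 1.199 in *bves* KO-EX against WT (SE 0.31, adjusted p = 0.0464 by edgeR), the second of which passed in edgeR.

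*crtc2*, a coactivator of CREB, rose in *bves* KO-EX against WT by a log2 fold change of 0.87 (SE 0.22, adjusted p = 0.0459 by edgeR). It measured 3.45, 2.94 and 3.80 CPM in WT, 2.95, 3.29 and 3.81 CPM in *bves* KO and 5.61, 7.31 and 5.71 CPM in *bves* KO-EX, so *bves* KO overlapped WT and the libraries labelled *bves* KO-EX lay above. In *bves* KO-EX against *bves* KO its value of 0.89 had an adjusted p of 0.0755 in edgeR and 0.0250 in DESeq2. In adenylate handling, the AMP deaminase gene *ampd2b* showed the same order of groups at 6 to 17 reads in the WT and *bves* KO libraries and 30 to 40 in *bves* KO-EX (against WT log2 fold change 1.53, SE 0.38, adjusted p = 0.0429 by edgeR). *adssl*, an adenylosuccinate synthase gene, fell in *bves* KO-EX against WT by a log2 fold change of -0.67 (SE 0.17, adjusted p = 0.0440 by edgeR). It measured 16.4 to 19.8 CPM in WT, 12.9 to 15.0 CPM in *bves* KO and 10.3 to 12.7 CPM in *bves* KO-EX. In *bves* KO against WT, *adssl* was at -0.41 and the related *adss1* at 0.51 (edgeR adjusted p = 0.246 and 0.320).

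These 7 calls were sensitive to single libraries, although the direction of each was kept. With 1 library left out the log2 fold change ran from -0.75 to -0.59 for *adssl*, from 0.74 to 0.95 for *crtc2*, from 1.36 to 1.63 for *ampd2b* and from -1.32 to -1.02 for *nuak1a*. It ran from -2.98 to -2.02 for *gfpt2*, from 0.96 to 1.42 for *eef2k* and from -3.01 to -2.09 for *melk*. With each of the 9 libraries left out in turn, *adssl* passed in 0 of 9 fits (edgeR adjusted p 0.0596 to 0.126). *crtc2* passed only without WT replicate 3 and *ampd2b* only without *bves* KO replicate 2, the others reaching 0.115 and 0.143. *nuak1a* passed only without WT replicate 2 or 3 and otherwise reached 0.143, *gfpt2* only without WT replicate 2 or *bves* KO-EX replicate 2 and otherwise reached 0.152, and *eef2k* only without WT replicate 3 or *bves* KO-EX replicate 2 and otherwise reached 0.153. *melk* passed without WT replicate 3 or without any of the *bves* KO libraries and otherwise reached 0.0997. With *bves* KO-EX represented by replicate 2 alone, none of the 7 passed in edgeR (adjusted p 0.174 to 0.442), and *eef2k* had a log2 fold change of 0.62.

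In the lists with no gene past the test, the folliculin partner *fnip1* had the smallest p. Its product binds AMPK in mammals. *fnip1* measured 18.0, 14.5 and 14.9 CPM in WT, 40.1, 39.96 and 45.3 CPM in *bves* KO and 49.6, 17.3 and 20.4 CPM in *bves* KO-EX. All *bves* KO libraries were far above the WT range, *bves* KO-EX replicate 1 was as high as they were, and *bves* KO-EX replicates 2 and 3 were close to WT. The log2 fold change in *bves* KO against WT was 1.40 (SE 0.34), with an adjusted p of 0.0874 in edgeR and 0.00646 in DESeq2. The edgeR value was 0.0141 when only the 6 libraries compared were fitted, 0.0101 without *bves* KO-EX replicate 1 and 0.0444 without *bves* KO-EX replicate 2. In *bves* KO-EX against *bves* KO the log2 fold change was -0.52 (edgeR adjusted p = 0.530), and -1.14 (edgeR adjusted p = 0.0498) without *bves* KO-EX replicate 1. With replicate 2 alone standing for *bves* KO-EX it was -1.29 (edgeR adjusted p = 0.163).

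In the Stk11 complex list, *cab39l1*, a gene for the Mo25 scaffold that binds Stk11, measured 15.4 to 19.9 CPM in WT, 9.75 to 13.2 CPM in *bves* KO and 8.48 to 12.7 CPM in *bves* KO-EX. Its log2 fold change in *bves* KO-EX against WT was -0.76 (SE 0.21), with an adjusted p of 0.0569 in edgeR and 0.0158 in DESeq2. *map3k7*, a kinase upstream of AMPK in some mammalian cells, had log2 fold changes of -0.32, 0.03 and -0.30 in the 3 comparisons (edgeR adjusted p 0.256 to 0.964). The phosphatase gene *ppm1aa* had log2 fold changes of -0.58, 0.16 and -0.42, the first being -1.02 without *bves* KO replicate 2 and -0.32 without *bves* KO replicate 3. In the lipid and sterol list, the malonyl-CoA decarboxylase gene *mlycd* had log2 fold changes of 1.00, -1.40 and -0.41. The glycerol-phosphate acyltransferase gene *gpam* had 0.44, 0.50 and 0.94, and none of these values passed the test in edgeR. For *mlycd* the first was 0.63 without *bves* KO replicate 1, and the second was -2.22 without *bves* KO-EX replicate 1.

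**Figure D5:**
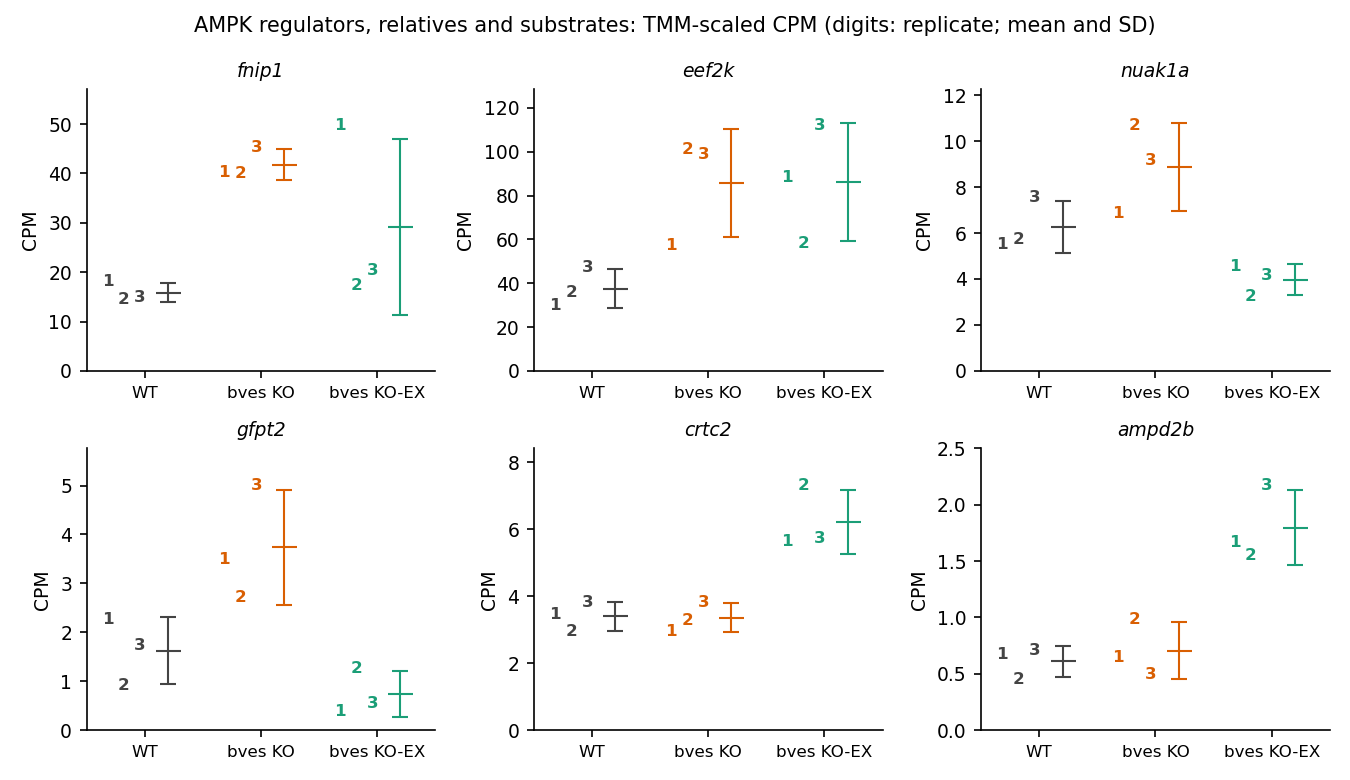
CPM of 6 genes from the lists around AMPK in each library, *ampd2b* being from adenylate handling. Digits give the replicate number, and the bar beside them the group mean with its SD (n = 3). For *fnip1* the 3 *bves* KO libraries are at 39.96 to 45.3 CPM and the *bves* KO-EX libraries are split between 49.6 CPM and 17.3 to 20.4 CPM.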

How the data were processed

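Muscle RNA of 9 libraries (3 WT, 3 *bves* KO, 3 *bves* KO-EX) had been sequenced. The authors deposited estimated counts per Ensembl gene, not normalized, and TPM values, normalized by them for gene length and library size. The submitters' processing notes name fastp, HISAT2, StringTie and RSEM, with no version or role, and the genome build is not given in the sources used here. Deposited columns of fold changes, p-values and group means were not used.

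Counts were rounded and filtered with filterByExpr, which left 14849 of 32520 genes, and scaled by TMM. All 9 libraries were fitted together with edgeR 4.0.16 (glmQLFit, robust, and glmQLFTest, two-sided, R 4.3.3) with Benjamini-Hochberg adjustment at 0.05, and no block. The SE and 95% interval came from the fold change and its F statistic. Alternatives were DESeq2 1.42.0, limma 3.58.1 on log2(TPM + 1) and log2(TPM + 0.1), other scalings and filters, and a replicate block. Further ones were removal of the mitochondrially encoded genes, leaving out each library, and *bves* KO-EX by replicate 2 alone. Scripts were tested on simulated data. Depth was 17422188 to 18860779 counts per library, and p-values measure the spread between pools of 2 fish. The members and lists were chosen with earlier results of these data known. Named pathway genes were at most the 4 smallest p per list past the threshold or, where none passed, at most 2 of the smallest p. Outside that rule, *adss1* was given beside *adssl*. For the member of smallest p in each of *bves* KO against WT and *bves* KO-EX against *bves* KO, the 3 genes with the highest r were named. No sequences are shown.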

Additional observations from a re-analysis of the deposited data

How the results depend on the processing

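None of the 8 tested members passed the test in any alternative run or in any fit that left out a library. Over 280 member values under the other settings, 0 changed sign, and over 216 values with a library left out, 5 did. With a library left out, log2 fold changes ran from -0.051 to 0.51 for *prkag2a* in *bves* KO against WT, from -0.039 to 0.31 for *prkag3b* and from -0.32 to 0.023 for *stk11* in *bves* KO-EX against *bves* KO, and from -0.23 to 0.33 for *prkag2a* and from -0.045 to 0.39 for *prkag3a* in *bves* KO-EX against WT. Outside the members, CABZ01083448.1 ran from -0.025 to 0.51 and *bves* from -0.68 to 0.055 in *bves* KO-EX against WT, and *prkag2b* from -0.33 to 0.23 in *bves* KO-EX against *bves* KO. *prkag2b* also turned in that comparison to 0.018 under total-count scaling and to 0.023 and 0.032 in limma on log2(TPM + 1) and log2(TPM + 0.1), and *gpam* turned to -0.052 in *bves* KO-EX against WT with replicate 2 alone. The cause was not tested.

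Deviations of same-numbered libraries from their group means had correlations of -0.28 to 0.16. Differently numbered libraries were not correlated for reference, so pairing by replicate number was not tested. With the replicate block, 0 members passed, and the genes called over all tested were 127, 147 and 615 in *bves* KO against WT, *bves* KO-EX against *bves* KO and *bves* KO-EX against WT, where the fit without it called 165, 243 and 801. DESeq2 called 709, 690 and 1752 genes, and total-count scaling 82, 109 and 411, where it moved the median of all genes to 0.11 in both comparisons with *bves* KO-EX. Upper-quartile scaling split the calls as 120 higher and 108 lower in *bves* KO-EX against *bves* KO and as 571 and 263 against WT, where TMM gave 107 and 136, and 454 and 347. Counts over all genes also fell with single libraries, from 243 to 20 in *bves* KO-EX against *bves* KO without *bves* KO replicate 1, and with replicate 2 alone standing for *bves* KO-EX they were 5 against *bves* KO and 52 against WT. Of the 7 pathway calls, those of *melk* and *eef2k* passed in 9 of 11 and 8 of 12 other settings, *nuak1a* in 7 of 12, *gfpt2* in 6 of 11, *crtc2* in 5 of 12, *ampd2b* in 4 of 11 and *adssl* in 4 of 12, all with their direction kept. *prkab1a* and *prkag2a* had at most 99 and 73 reads in a library.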
